A study of Mus musculus with 16 samples.

Results

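The genes described here are 9 genes of selenium biology in mouse liver, chosen by symbol from the 22612 genes of the deposited expression matrix. They are the selenium-binding protein genes Selenbp2 and Selenbp1, and the selenoprotein genes Dio1, Selenop, Gpx1, Gpx4, Txnrd2, Msrb1 and Sephs2. The genes were proposed with results of these libraries known, so the differences of Selenbp2 from the chow group are given as a description. The series compared livers of male C57BL/6 mice, bought at 7 weeks of age and fed for 16 weeks, in 4 diet groups with 4 libraries each. HK mice switched every 2 weeks between a high-fat diet (58% of energy from fat) and a ketogenic diet (90.5%). HC mice switched every 2 weeks between the high-fat diet and chow (11%). The H group had the high-fat diet throughout, and the N group had chow throughout. All mice were fasted overnight before the livers were taken. The labels count 6 mice per group but do not say which mice gave the 4 libraries, whether animals were pooled, or which diet the alternating groups ate last, so the p-values below measure the spread between these libraries.

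Selenium reaches most tissues in the blood as selenoprotein P, which the liver makes and secretes. Selenoproteins carry the amino acid selenocysteine, placed during translation at a UGA codon that elsewhere means stop, and this needs a hairpin in the messenger RNA and a set of dedicated enzymes and factors. In most selenoenzymes the selenocysteine sits in the active site, where it takes part in the reduction of peroxides, disulfides, oxidised methionine or iodothyronines. The selenium-binding proteins differ from these: they bind selenium without holding selenocysteine, and Selenbp1 is known as a methanethiol oxidase.

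The codons that set the selenoproteins apart are shown first. Each line gives 27 bases of a GENCODE vM21 transcript of GRCm38 (mm10), with the selenocysteine codon in capitals. They are coding bases, except that the Txnrd2 line runs past the end of its coding sequence.
Dio1: ggcagttgcaccTGAccttcatttctt
Selenop: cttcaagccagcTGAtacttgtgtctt
Gpx1: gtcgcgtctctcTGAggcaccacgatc
Gpx4: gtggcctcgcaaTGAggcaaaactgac
Txnrd2: gtgactggttgcTGAggctaagtcacc
Msrb1: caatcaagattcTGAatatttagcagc
Sephs2: ggcatgaagggcTGAggctgcaaggtc
The codon is residue 126 of 257 in Dio1 (chr4:107297700-107297702, minus strand), 47 of 201 in Gpx1 (chr9:108339451-108339453), 73 of 197 in Gpx4 (chr10:80054737-80054739) and 95 of 116 in Msrb1 (chr17:24740158-24740160). In Sephs2 it is residue 63 of 452 (chr7:127273731-127273733, minus strand). In Txnrd2 it is residue 526 of 527, the last but 1 (chr16:18477772-18477774). Selenop has 10 such codons among 380, and the one printed is the first, residue 59 (chr15:3274848-3274850); the last is residue 377. All were in frame, and the annotated transcripts of Selenbp2 and Selenbp1 held 0 selenocysteine codons.

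The selenium-binding genes are near copies on chromosome 3, and their likeness bears on how their values can be read. In the file's mm10 coordinates Selenbp2 lies at chr3:94693556-94704413 and Selenbp1 at chr3:94933056-94944745, both on the plus strand, 228642 bases apart. Their coding sequences of 1416 bases differed at 18 positions, an identity of 98.73%. The stretch below, coding bases 391 to 450, holds 4 of those differences, in capitals.
Selenbp2: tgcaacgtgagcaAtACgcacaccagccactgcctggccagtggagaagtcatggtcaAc
Selenbp1: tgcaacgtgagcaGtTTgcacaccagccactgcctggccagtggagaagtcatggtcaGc
Of the windows of 150 bases in the main Selenbp2 transcript, 109 of 1570 (6.94%) also occurred in that of Selenbp1, and of the windows of 31 bases, 66.96% did. A read of 150 bases that lies wholly in a shared window of 150 bases could be assigned to either gene only by estimation. The share of 31-base windows is not a share of such reads. The separate values of Selenbp2 and Selenbp1 are therefore less certain than their sum.

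Their promoters were more different than their coding sequences. The lines below give 250 bases before to 50 after the start site from RefSeq on GRCm38.p6, plus strand (chr3:94693323-94693622 for Selenbp2, chr3:94932833-94933132 for Selenbp1), with capitals for bases that had no identical partner in the alignment. Selenbp2 differed between chow and the other diets while Selenbp1 passed in no comparison. Whether the promoter bases have a part in this was not tested.
Selenbp2: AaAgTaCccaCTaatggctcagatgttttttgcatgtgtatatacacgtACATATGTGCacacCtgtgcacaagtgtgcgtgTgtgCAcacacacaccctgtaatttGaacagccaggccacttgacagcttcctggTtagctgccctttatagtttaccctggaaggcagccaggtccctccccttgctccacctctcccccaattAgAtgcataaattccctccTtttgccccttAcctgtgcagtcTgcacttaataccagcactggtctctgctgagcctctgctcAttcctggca
Selenbp1: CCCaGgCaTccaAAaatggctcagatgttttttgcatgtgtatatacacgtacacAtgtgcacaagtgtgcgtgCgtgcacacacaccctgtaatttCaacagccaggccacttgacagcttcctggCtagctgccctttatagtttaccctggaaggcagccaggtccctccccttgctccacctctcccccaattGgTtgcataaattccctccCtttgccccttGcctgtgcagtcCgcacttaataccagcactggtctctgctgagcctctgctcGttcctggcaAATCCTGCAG
The aligned promoters were identical in 272 of 312 columns (87.18%), with 28 bases in each that had no identical partner, and their longest shared run was 69 bases. The windows are offset: the last capitals of the Selenbp1 line lie past the end of the Selenbp2 window, with nothing to be compared with. The 28 bases and the identity include such window ends. On both strands, 5 motifs were searched. Neither promoter held TTCNNNGAA (the core of STAT sites, in 8.30% of 32851 promoters), TGACNNNGC (the core of the antioxidant response element, in 12.39%), the direct repeat element of nuclear receptors with 1 base between its parts (in 0.04%) or the HNF1 element (in 0.01%). TATAAA, in 13.62% of promoters, occurred on the minus strand of both, at -103 to -98 in Selenbp2 and -113 to -108 in Selenbp1. These are matches of letters only.

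Expression is given as TPM, the abundance of a gene's transcripts per length as a share of all transcripts in the library, scaled to the same total in each, and differences as log2 of TPM + 1. Between 10575 and 11695 genes per library had at least 1 TPM, and the 20 most abundant genes held 27.08% to 38.82% of all TPM. That share was above 33% in 4 libraries, H replicates 1 and 2 and N replicates 2 and 3. Runs without them kept H replicates 3 and 4 and N replicates 1 and 4. Mitochondrial genes held 18.37% of TPM in N replicate 3, 13.58% in N replicate 2 and at most 11.35% elsewhere. N replicate 3 was the lowest N library for Selenbp2, Dio1, Selenop, Gpx1, Txnrd2, Sephs2 and Msrb1. The part of this share in their values was not tested. The sequencing depth is unknown. The summed TPM of 10 hepatocyte markers was 97007 to 102763 in HK, 118604 to 128606 in HC, 96130 to 139086 in H and 99535 to 113028 in N. Of 5 adipocyte markers, Cfd (adipsin) had 12.8 to 42.0 TPM in HK, 0 to 1.33 in HC, 0.723 to 3.34 in H and 0 to 0.447 in N. The other 4 (Adipoq, Lep, Plin1 and Retn) summed to at most 0.0923 TPM in HK, 0.0893 in HC and 1.23 in H and were at 0 in N, so the higher Cfd of HK came without the other adipocyte markers. In bulk tissue, fewer cells of a type and less RNA per cell cannot be told apart.

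The median log2 difference over all genes tested was 0.21 for HK against H, 0.19 for HK against HC and 0.15 for HK against N, and between -0.05 and 0.02 in the other 3 comparisons. With median-of-ratios scaling those 3 medians were 0.0136, 0.00787 and 0.00243. Small positive differences of the HK group are therefore to be read against these medians, which are drawn in the plot of differences.

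**Figure D1:**
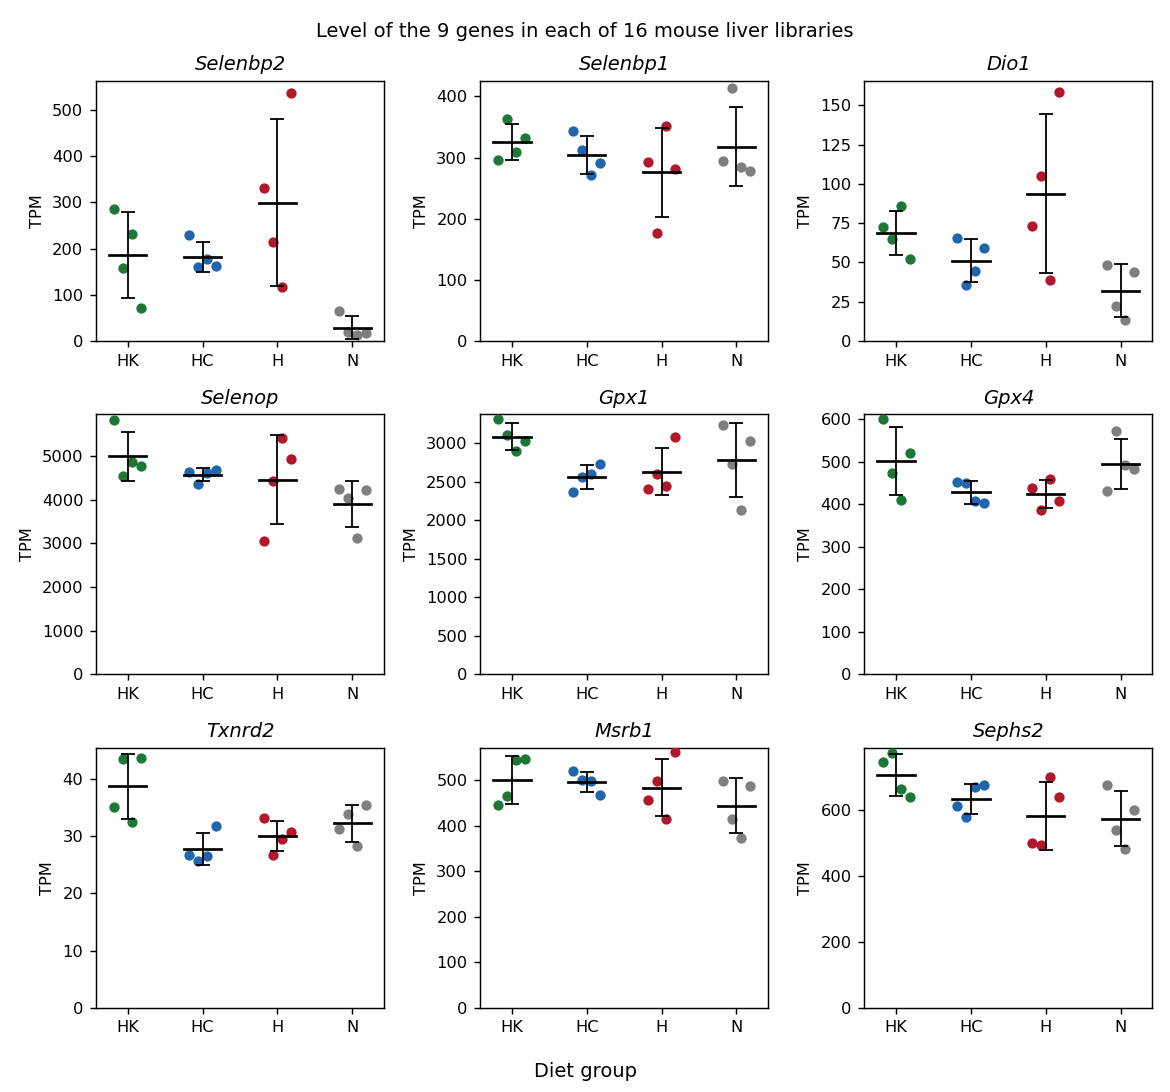
TPM of each of the 9 genes (vertical axis, linear, from 0) in the HK, HC, H and N groups. Points are libraries, with the mean and its SD (n = 4 per group). The N libraries of Selenbp2 lie between 13.1 and 65.8 TPM, below every other library of that gene.

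All 9 genes had at least 1 TPM in all 16 libraries and so entered every comparison. Selenop ranked 40 of 22612 genes by mean TPM and Gpx1 ranked 57. Txnrd2, at rank 2537, was the least abundant of the 9. Over the 16 libraries, the highest value was 41.1 times the lowest for Selenbp2 and 11.7 times for Dio1, against 1.505 to 2.34 times for the other 7 genes.

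Selenbp2, first described in mouse liver as a protein that binds acetaminophen, was lowest in chow livers. It had 286.0, 157.4, 232.7 and 71.9 TPM in HK livers, 228.5, 159.3, 178.1 and 162.6 TPM in HC livers, 330.5, 213.7, 116.3 and 536.5 TPM in H livers, and 65.8, 19.2, 13.1 and 18.1 TPM in N livers. No N library reached the lowest library of any other group, whereas the HK, HC and H groups overlapped one another. The means were 187 ± 93.1 TPM in HK, 182 ± 32.0 in HC, 299 ± 181 in H and 29.0 ± 24.6 in N (SD, n = 4).

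Set against N, these means were 10.3 times as high in H, 6.27 times in HC and 6.44 times in HK. These ratios rest in part on N replicate 1, the highest N library: without it the N mean was 16.8 TPM, and the ratios were 17.8 for H, 10.8 for HC and 11.1 for HK. The log2 difference was 3.40 for H against N (SE 0.511, 95% interval 2.28 to 4.52), 2.88 for HC against N (SE 0.383, 2.05 to 3.72) and 2.77 for HK against N (SE 0.492, 1.69 to 3.84). The 3 comparisons share the N libraries. Selenbp2 was the 1 gene of 9 that passed an adjusted p of 0.05 in each of them (limma, Benjamini-Hochberg), where 1.06%, 1.16% and 5% of all genes tested passed in H, HC and HK against N. Since the gene was chosen with its difference known, nothing is read from that count. Without the 4 libraries above 33% the log2 difference was 2.81 for H, 2.34 for HC and 2.22 for HK, and Selenbp2 then passed in HC against N alone. That run kept N replicates 1 and 4, at 65.8 and 18.1 TPM, and H replicates 3 and 4. The hepatocyte marker sum was higher in HC than in N without overlap and overlapped between N and the other groups; its part was not tested.

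Among the fat-fed groups the spread of Selenbp2 was wide. The log2 difference was -0.63 for HK against H (95% interval -1.67 to 0.40), -0.51 for HC against H (-1.31 to 0.28) and -0.12 for HK against HC (-0.88 to 0.65). These intervals span 0 and also include differences of more than 2-fold for HK against H and HC against H. Without HK replicate 4, the lowest HK library, the difference from HC was 0.28.

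Selenbp1 passed in no comparison. It had 296, 362, 309 and 332 TPM in HK livers, 343, 313, 271 and 291 TPM in HC livers, 292, 176, 352 and 282 TPM in H livers, and 295, 413, 285 and 278 TPM in N livers. All 4 groups overlapped, with means of 325 ± 29.1, 305 ± 31.1, 276 ± 72.9 and 318 ± 63.9 TPM in HK, HC, H and N (SD, n = 4). The log2 difference was -0.23 for H against N (95% interval -0.72 to 0.26), -0.05 for HC against N (-0.37 to 0.27) and 0.05 for HK against N (-0.28 to 0.38).

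Of the summed TPM of the pair, Selenbp2 made up 35.0 ± 13.9% in HK, 37.3 ± 3.03% in HC, 49.6 ± 17.4% in H and 8.29 ± 6.68% in N (SD, n = 4). The largest N share was 18.2%, in N replicate 1, and the smallest HK share was 17.8%, in HK replicate 4, so these groups overlapped by 1 library each way; the HC and H shares began at 33.7% and 24.8%. The sum was 512 ± 76.3 TPM in HK, 487 ± 57.7 in HC, 575 ± 189 in H and 347 ± 64.3 in N. Assigning reads to one copy or the other changes this sum little, since the transcripts are of nearly equal length. It spanned 404 to 582 TPM in HK, 449 to 572 in HC, 390 to 818 in H and 296 to 432 in N, so HC lay above N while HK and H overlapped with N.

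**Figure D2:**
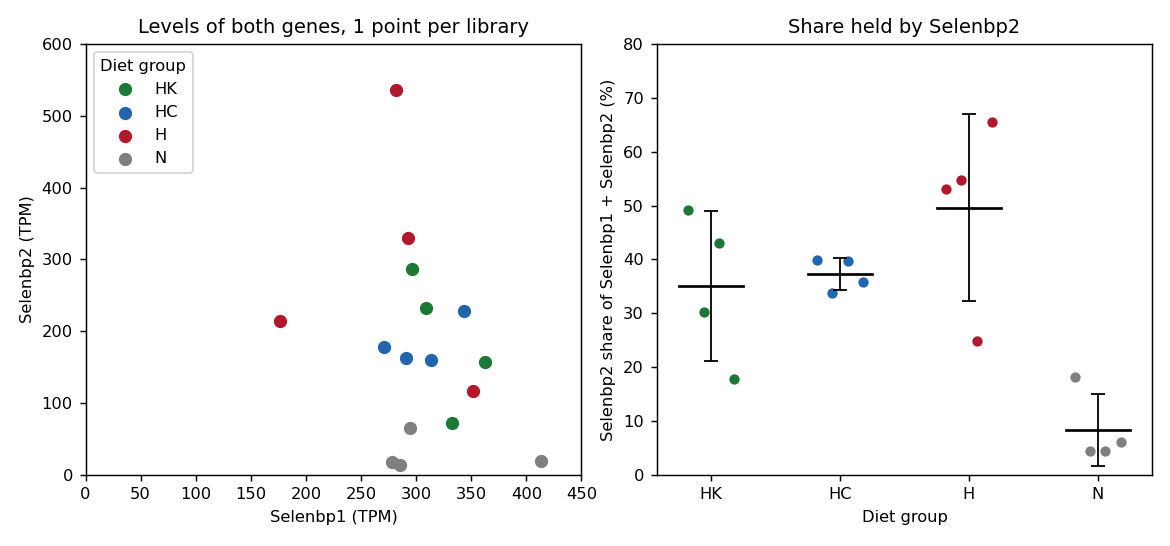
Selenbp2 against Selenbp1 in TPM for each library, and the share of Selenbp2 in the summed TPM of the pair (percent) for the HK, HC, H and N groups, with mean and SD (n = 4). The mean share is 8.29% in N and between 35.0% and 49.6% in the other groups, while Selenbp1 shows no such separation.

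Between the pair lie 3 genes, Cgn (cingulin of tight junctions), Pogz and the proteasome subunit gene Psmb4. In H against N their log2 differences were -0.26, -0.01 and 0.06, and 0 of 3 passed. In both selenium-binding genes 1 transcript of 12 exons held nearly all of the TPM, 96.3% for Selenbp2 and 99.2% for Selenbp1 over the 16 libraries.

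The 5 genes whose pattern over the 16 libraries was most like that of Selenbp2, out of 10711 genes with a mean of at least 1 TPM, were Slc13a3, Slc23a1, Slc22a7, F11 and Trim7, with Pearson's r of 0.926, 0.909, 0.905, 0.901 and 0.894. Slc13a3 encodes a dicarboxylate carrier, Slc23a1 a vitamin C carrier, Slc22a7 an organic anion carrier and F11 coagulation factor XI. Slc22a7 averaged 23.6 TPM in HK, 36.2 in HC, 35.1 in H and 3.87 in N, and F11 averaged 43.8, 38.9, 56.1 and 14.2 TPM in HK, HC, H and N. The likeness is a description of libraries that share diets, and the genes were picked by it.

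Dio1 encodes the liver deiodinase, which turns thyroxine into the active hormone T3 and clears reverse T3. Its level followed the same order of group means as Selenbp2, H above HK above HC above N, but every pair of neighbours in that order overlapped. It had 72.8, 64.9, 85.8 and 51.9 TPM in HK livers, 65.4, 35.7, 44.3 and 59.1 TPM in HC livers, 73.0, 105.0, 39.1 and 158.3 TPM in H livers, and 48.3, 22.4, 13.5 and 44.0 TPM in N livers. Every HK library lay above every N library, while the highest N library lay above the lowest HC and H libraries.

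Dio1 averaged 68.8 ± 14.2 TPM in HK, 51.1 ± 13.6 in HC, 93.9 ± 50.7 in H and 32.1 ± 16.8 in N (SD, n = 4). The log2 difference was 1.22 for HK against N (SE 0.340, adjusted p = 0.066), 1.51 for H against N (SE 0.451, adjusted p = 0.186) and 0.78 for HC against N (SE 0.350, adjusted p = 0.392; limma, Benjamini-Hochberg over all genes tested), so none passed. The call in HK against N depended on the processing and on 1 library: the adjusted p was 0.0467 with median-of-ratios scaling, 0.0486 with quantile normalization and 0.0145 without N replicate 1, where the log2 difference was 1.47. In these runs 742 of 11030, 862 of 11091 and 1620 of 10943 genes tested passed, beside 555 of 11091 in the main fit. The difference of H from N passed when all 16 libraries shared one fit (adjusted p = 0.0409), where 399 of 10960 genes did, beside 116 in the main fit. Without the libraries above 33% the log2 difference was 0.55 for HK, 0.76 for H and 0.11 for HC against N. That run kept N replicates 1 and 4, the highest N libraries of Dio1 at 48.3 and 44.0 TPM. The N libraries left out had 22.4 and 13.5 TPM, and H kept replicates 3 and 4, its lowest and highest. Among the fat-fed groups the log2 difference was -0.29 for HK against H (95% interval -1.04 to 0.46; 0.015 without H replicate 4, the highest library), -0.73 for HC against H (-1.5 to 0.04) and 0.44 for HK against HC (0.00 to 0.88).

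The deviations of Dio1 and Selenbp2 from their group means had r = 0.745 (16 libraries, permutation within groups p = 0.00544, Spearman's rho 0.656, p = 0.0133). This was 1 of 36 pairs of the 9 genes, of which Dio1 and Msrb1 had the highest r, 0.769, and after Benjamini-Hochberg adjustment p was 0.176 for both. Leaving out H replicate 4 and N replicate 1, r was 0.614. Selenbp2 and Selenbp1 had r = -0.137, and 0 of the 36 pairs passed the adjustment.

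Beside the 9 genes, lists of related genes were counted, with 22 calls over the 6 comparisons. Of these calls, 5 held whichever library was left out: Gsr in HK against HC, Ttr and Elovl3 in HK against N, and Bhmt in HK and in HC against N. With median-of-ratios scaling, 8 of the 9 list calls in HK against HC were lost, all but that of Srxn1 (log2 difference 0.86, adjusted p = 0.0359, limma), and no list call changed direction. The calls below in HK against HC are to be read with that limit. Over all genes tested, 5.04% passed in HK against HC, 5% in HK against N, 1.16% in HC against N and 1.06% in H against N. In HK against H and HC against H 0.036% and 0.0459% passed. The count of each list is to be read beside these shares.

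Of 15 tested genes that carry, sense or respond to thyroid hormone, 0 passed in HK against H, HC against H, H against N and HC against N. In HK against HC, 2 rose: Rxra, the partner receptor of the thyroid hormone receptors, averaged 187 ± 39.1 TPM in HK and 119 ± 17.4 TPM in HC (log2 difference 0.63, adjusted p = 0.0435), and Serpina7, which encodes thyroxine-binding globulin, averaged 38.1 ± 13.3 and 17.7 ± 4.91 TPM in HK and HC (1.04, adjusted p = 0.0442). In HK against N, Ttr, the thyroxine carrier transthyretin and an abundant hepatocyte product, fell to 5686 ± 832 TPM in HK, against 10418 ± 1237 TPM in N (-0.88, adjusted p = 0.00965; limma, n = 4 each). The log2 difference of Ttr from N was -0.48 in H and -0.46 in HC, and neither passed. The list's median log2 difference was 0.15 in HK against HC and 0.35 in HK against N, beside 0.19 and 0.15 over all genes tested. Of all genes tested, 5.04% and 5% passed in these comparisons.

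**Figure D3:**
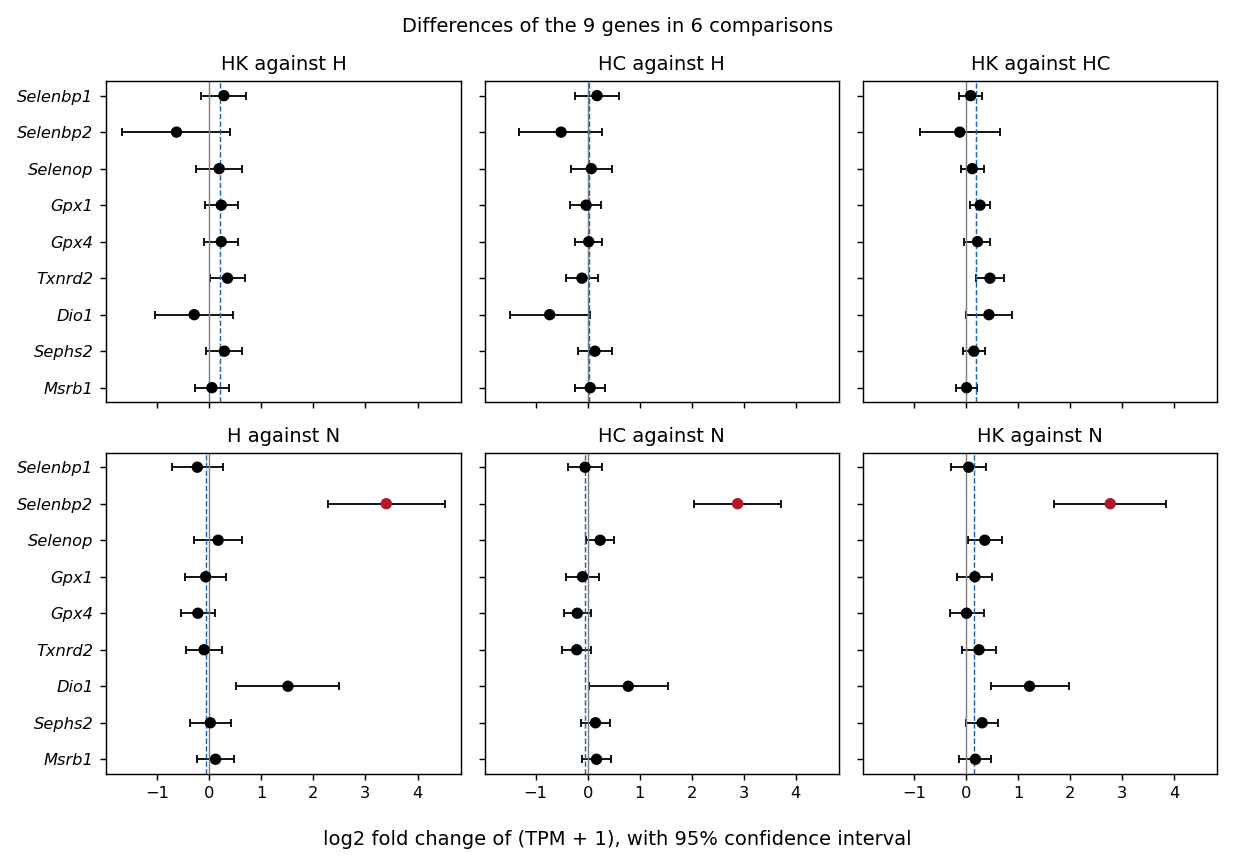
Log2 difference of TPM + 1 (horizontal axis) of the 9 genes in 6 comparisons of diets, with 95% intervals from limma. Red marks an adjusted p below 0.05 and the blue dashed line the median of all genes tested. Selenbp2 is the gene in red in the 3 comparisons with N, at 3.40, 2.88 and 2.77, and no gene is red in the comparisons among the fat-fed groups.

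Selenop, the secreted selenium carrier, was the most abundant of the 9 genes, and its highest library was 1.90 times its lowest. It had 5819, 4538, 4862 and 4770 TPM in HK livers, 4645, 4367, 4615 and 4686 TPM in HC livers, 3066, 4425, 5410 and 4945 TPM in H livers, and 4245, 4041, 3124 and 4221 TPM in N livers. Every HK and HC library lay above every N library, whereas H overlapped all groups. The means were 4997 ± 564, 4578 ± 144, 4461 ± 1014 and 3908 ± 530 TPM in HK, HC, H and N (SD, n = 4).

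The log2 difference of Selenop from N was 0.36 in HK (SE 0.150, adjusted p = 0.191, limma), 0.24 in HC (95% interval -0.04 to 0.51) and 0.17 in H (-0.29 to 0.63). The first was 0.19 with median-of-ratios scaling. In HK against N, 3 of the 9 genes had groups that did not overlap (Selenbp2, Dio1 and Selenop), all higher, where 9.34% of all genes tested were higher without overlap. In HC against N these were Selenbp2 and Selenop, beside 2.94%, and in H against N Selenbp2 alone, beside 2.49%. The genes were chosen with results of these libraries known, Selenbp2 with its difference known, so nothing is read from these counts.

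Of the Selenop total, transcripts of 2085 and 2013 bases held most. The longer had 78.0 ± 17.6% in HK, 89.8 ± 12.1% in HC, 95.2 ± 2.46% in H and 74.0 ± 37.5% in N (SD, n = 4). In N it spanned 18.4% to 98.9%, so libraries of one group differed more than the groups. Over 4 genes with at least 2 transcripts of 5% or more (Selenop, Gpx1, Txnrd2 and Msrb1), 44 shares were compared, in HK against H, HC against H, H against N and HK against N, and 0 had an exact two-sided permutation p at or below 0.05; the smallest was 0.0857, where 4 libraries against 4 allow 0.0286.

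The highest library was 1.55 times the lowest for Gpx1 and 1.56 times for Gpx4. Gpx1, the cytosolic glutathione peroxidase that removes hydrogen peroxide, had 3316, 3110, 2899 and 3032 TPM in HK livers, 2366, 2561, 2605 and 2738 TPM in HC livers, 2411, 2601, 2448 and 3077 TPM in H livers, and 3241, 2727, 2137 and 3032 TPM in N livers. All HK libraries lay above all HC libraries, and other pairs of groups overlapped. The means were 3089 ± 175, 2568 ± 154, 2634 ± 307 and 2784 ± 481 TPM in HK, HC, H and N. The log2 difference was 0.27 for HK against HC (SE 0.0884, adjusted p = 0.0922, limma) and 0.06 with median-of-ratios scaling.

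Gpx4, which reduces lipid hydroperoxides in membranes, had 601, 473, 410 and 522 TPM in HK livers, 452, 449, 407 and 403 TPM in HC livers, 439, 386, 461 and 408 TPM in H livers, and 431, 573, 492 and 483 TPM in N livers. All groups overlapped. Its log2 difference from N was 0.01 in HK (95% interval -0.31 to 0.34), -0.20 in HC (-0.46 to 0.06) and -0.22 in H (-0.55 to 0.11).

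Txnrd2, the mitochondrial thioredoxin reductase, had the smallest adjusted p of the 9 genes in HK against HC. It had 35.0, 43.5, 32.5 and 43.6 TPM in HK livers and 26.7, 25.7, 26.5 and 31.8 TPM in HC livers, and these groups did not overlap. It had 33.1, 26.7, 29.4 and 30.7 TPM in H livers and 31.3, 33.9, 28.2 and 35.5 TPM in N livers, and both overlapped with HK. The log2 difference was 0.46 for HK against HC (SE 0.121, adjusted p = 0.0540) and 0.35 for HK against H (SE 0.152, adjusted p = 0.486; limma). For HK against HC it was 0.40 and passed without HK replicate 4 (adjusted p = 0.0442), and was 0.27 with median-of-ratios scaling (adjusted p = 0.347). In the run without HK replicate 4, 2513 of 10917 genes tested passed, beside 554 of 11002 in the main fit. In HK against HC, 0 of the 9 genes passed, beside 5.04% of all genes tested. In a set of 9 genes, 0 calls show no absence of a difference. Gpx1 and Txnrd2 were higher without overlap, beside 14.7% of all genes, and nothing is read from that count. In HK against HC the hepatocyte marker sum was lower without overlap, and the summed markers of sinusoidal endothelial cells (7 genes) were 129.7 to 206 TPM in HK and 86.9 to 126 TPM in HC. The Kupffer cell sums (87.3 to 317 TPM in HK, 96.3 to 142 in HC) and red blood cell sums (514 to 920, 629 to 2324) overlapped. By gene, the median log2 difference was 0.82 for Kupffer cell, 0.52 for endothelial, -0.32 for hepatocyte and -0.865 for red blood cell markers. The part of these marker sums in the values of Gpx1 and Txnrd2 was not tested.

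Msrb1, which reduces methionine-R-sulfoxide in proteins, had the narrowest range of the 9. It had 446, 465, 543 and 546 TPM in HK livers, 519, 499.9, 498 and 466 TPM in HC livers, 456, 499, 415 and 561 TPM in H livers, and 498, 414, 373 and 488 TPM in N livers. All groups overlapped. The log2 difference from N was 0.18 in HK (95% interval -0.13 to 0.48), 0.17 in HC (-0.10 to 0.44) and 0.12 in H (-0.24 to 0.48).

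Sephs2, itself a selenoprotein, makes the selenophosphate from which selenocysteine is built. It had 745, 774, 666 and 641 TPM in HK livers, 612, 581, 671 and 675 TPM in HC livers, 499.8, 493, 699.6 and 640.2 TPM in H livers, and 675, 538, 483 and 601 TPM in N livers. All groups overlapped. The log2 difference was 0.31 for HK against N (SE 0.139, adjusted p = 0.222, limma) and 0.13 with median-of-ratios scaling.

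In HK against H and HC against H, 0 of the 9 genes passed, where 0.036% and 0.0459% of all genes tested did, so these comparisons called few genes of any kind. The 9 genes had a median log2 difference of 0.23 for HK against H and 0.02 for HC against H, beside 0.21 and 0.02 over all genes.

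Summed over 24 selenoprotein genes, the 7 above and 17 others, TPM was 10640 ± 813 in HK, 9508 ± 248 in HC, 9428 ± 1303 in H and 8980 ± 1157 in N (SD, n = 4). Selenop made up 46.9%, 48.2%, 46.9% and 43.5% of that sum in HK, HC, H and N, and Gpx1 29.1%, 27.0%, 28.2% and 30.9%. Over all genes tested, 0.036% to 5.04% passed in the 6 comparisons. Of the 17 other selenoprotein genes, 12 or 13 were tested in a comparison and 0 passed in any of the 6. The most abundant were Selenof, of the endoplasmic reticulum, with 174 ± 15.1, 162 ± 5.57, 174 ± 31.04 and 160 ± 12.3 TPM in HK, HC, H and N, and Selenow, with 136 ± 15.7, 159 ± 9.38, 164 ± 30.1 and 167 ± 35.0 TPM. Txnrd1, the cytosolic thioredoxin reductase, named here after its value was seen, had 94.3 ± 16.0 TPM in HK and 66.3 ± 7.40 TPM in HC (log2 difference 0.49, adjusted p = 0.0574, limma).

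**Figure D4:**
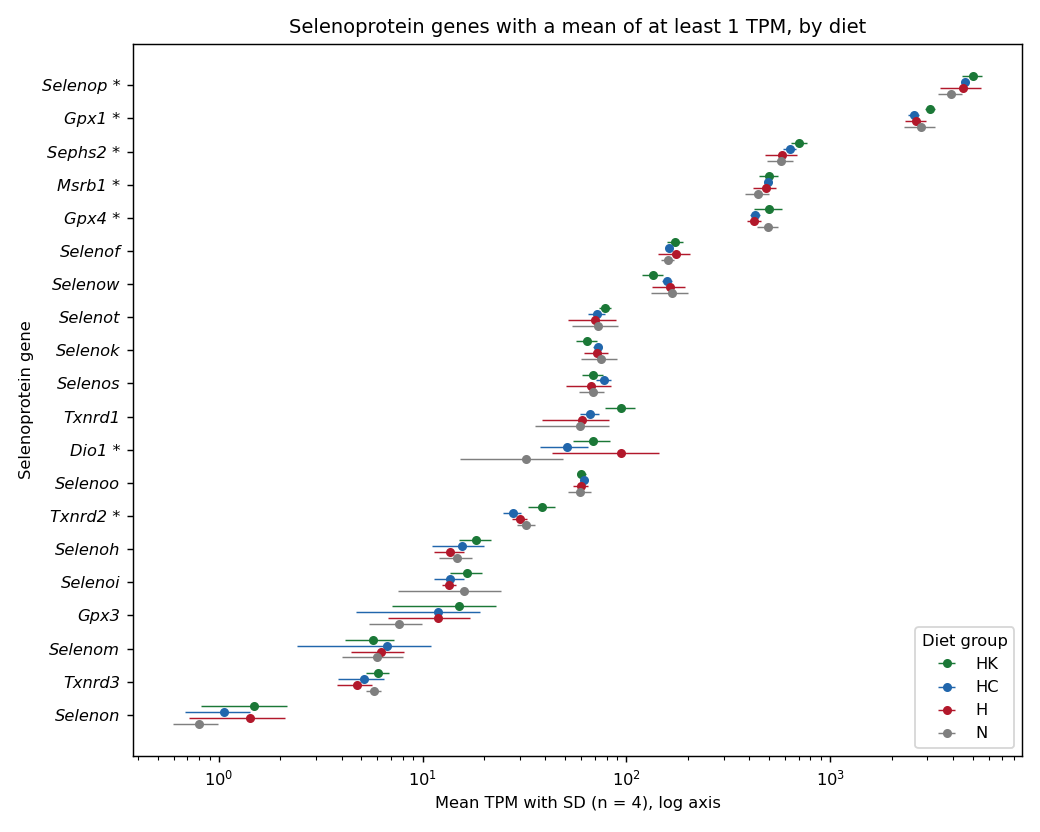
Mean TPM (logarithmic axis) of selenoprotein genes with a mean of at least 1 TPM, by group, with SD (n = 4). An asterisk marks the genes described in detail. Selenop and Gpx1 lie above all others in all 4 groups.

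Genes that make and insert selenocysteine (10 tested) showed 0 calls in the 6 comparisons, beside 0.036% to 5.04% of all genes tested. In a list this short, 0 calls show no absence of a difference. Of the 10, 3 had an unadjusted p below 0.05 (limma) in HK against HC, 1 in HK against N and 0 in the others. The most abundant were Rpl30, a ribosomal protein that binds the selenocysteine insertion hairpin, with 268 ± 21.5, 307 ± 7.23, 284 ± 29.1 and 300.3 ± 59.4 TPM in HK, HC, H and N, and Scly, the lyase that frees selenium from selenocysteine, with 68.0 ± 5.01, 65.2 ± 4.84, 66.6 ± 12.8 and 57.0 ± 10.2 TPM. With the same shares over all genes, genes of selenium uptake, transfer and methylation (7 tested) also had 0 calls. Of these, Inmt, a methyltransferase that can methylate selenium compounds, averaged 406 ± 160, 559.9 ± 165, 570.2 ± 145 and 644 ± 136 TPM in HK, HC, H and N. Cth, a lyase that also acts on the selenium forms of its sulfur substrates, averaged 481 ± 119, 435 ± 85.4, 319 ± 143 and 638 ± 131 TPM in HK, HC, H and N, and its widest log2 difference was -1.06, for H against N (SE 0.267, adjusted p = 0.110, limma).

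Of the gene lists described from here on, none had a call in HK against H or HC against H, and in H against N the 1 call was Bhmt. Of 17 tested partners of the selenoenzymes in the thioredoxin and glutathione systems, 3 rose in HK against HC: Gsr, glutathione reductase, averaged 51.0 ± 4.43 TPM in HK and 35.7 ± 1.40 in HC (log2 difference 0.50, adjusted p = 0.0139). Gclc, the catalytic subunit of the first step of glutathione synthesis, averaged 155 ± 23.0 TPM in HK and 106 ± 3.99 in HC (0.53, adjusted p = 0.0198; with median-of-ratios scaling Gsr and Gclc differed by 0.30 and 0.33, with adjusted p of 0.128 and 0.161). Srxn1, sulfiredoxin, averaged 40.7 ± 13.9 TPM in HK and 18.4 ± 2.98 in HC (1.06, adjusted p = 0.0185; limma, n = 4 each). The list's median was 0.17, beside 0.19 for all genes tested, of which 5.04% passed.

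Against N, Gclc fell to 106 ± 3.99 TPM in HC, against 191 ± 48.8 TPM in N (log2 difference -0.81, adjusted p = 0.0407), and the mitochondrial glutaredoxin Glrx5 rose in HK, with 74.2 ± 14.8 TPM in HK and 45.6 ± 7.98 TPM in N (0.69, adjusted p = 0.0482; limma). The Gclc call was lost in 6 and the Glrx5 call in 7 of the 8 runs that left out a library. The Glrx5 call was also lost when 0.1 rather than 1 was added to TPM. Of the peroxidases and methionine sulfoxide reductases without selenocysteine (5 or 6 tested), Msrb2, the mitochondrial relative of Msrb1, rose in HK, with 18.8 ± 1.17 TPM in HK, 13.5 ± 1.14 TPM in HC and 11.99 ± 0.967 TPM in N (0.45 and adjusted p = 0.0323 against HC, 0.61 and adjusted p = 0.0257 against N). The Msrb2 calls were lost in 6 and 5 of the 8 runs that left out a library, against HC and N. This list's median log2 difference was 0.23 in HK against HC and 0.101 in HK against N, beside 0.19 and 0.15 over all genes tested.

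Selenbp2 is higher in male than in female mouse liver, so genes of that kind were counted beside it. Of 14 male-biased genes tested, 0 passed in H against N, and 1 rose in HC against N, Serpina1e, an alpha-1-antitrypsin gene, with 7131 ± 955 TPM in HC and 2908 ± 1404 TPM in N (log2 difference 1.42, adjusted p = 0.0465); without the libraries above 33% it was 0.80. Serpina1e differed from N by 1.05 in H and 1.13 in HK, and passed in neither. Its call in HC against N was lost in 7 of the 8 runs that left out a library. In HK against N, Cyp7b1, an oxysterol hydroxylase, rose (137 ± 11.4 TPM in HK and 74.5 ± 21.5 in N, 0.91, adjusted p = 0.0174), and Mup20, a major urinary protein, and Elovl3, a fatty acid elongase, fell, with log2 differences of -0.85 and -2.27 (adjusted p = 0.0319 and 0.00650). These genes did not pass in H or HC against N. Their log2 differences there were 1.25 and 0.85 for Cyp7b1, -0.66 and -0.64 for Mup20, and -1.43 and -1.43 for Elovl3. In HK against HC, Mup3 fell, with -0.89 (adjusted p = 0.0435; limma). Mup genes are near-identical copies, so their split is uncertain. Of all genes tested, 1.16% passed in HC against N, 5% in HK against N and 5.04% in HK against HC. The list's median log2 difference was 0.17 in HC against N, 0.07 in HK against N and -0.23 in HK against HC. Over all genes tested these medians were -0.04, 0.15 and 0.19. In HK against H the list's median was -0.38, beside 0.21.

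Of the female-biased genes, 7 to 9 were tested. Cyp2b9 rose in HK against HC, with 1.80 to 35.2 TPM in HK and 0.394 to 1.25 TPM in HC (log2 difference 2.74, adjusted p = 0.0306), and Abcd2, a peroxisomal fatty acid carrier, rose in HK against N, with 11.7 ± 3.15 TPM in HK and 4.53 ± 0.938 TPM in N (1.18, adjusted p = 0.0115; limma). The Cyp2b genes, too, have close copies. Abcd2 differed from N by 0.75 in H and 0.76 in HC, and passed in neither. In HK against HC, 3 of the 8 tested genes of this list were higher in HK. The list's median log2 difference there was -0.13, beside 0.19 over all genes tested. In HK against N the list's median was 0.08, beside 0.15.

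Among 13 genes of sulfur metabolism, listed because Selenbp1 oxidises methanethiol, Bhmt rose in every fat-fed group against N. Bhmt, which remakes methionine from homocysteine, averaged 3408 ± 914 TPM in HK, 3316 ± 845 in HC, 3899 ± 1251 in H and 1191 ± 365 in N. Its log2 difference from N was 1.52 in HK (adjusted p = 0.00543), 1.49 in HC (adjusted p = 0.0111) and 1.70 in H (adjusted p = 0.0149; limma, n = 4 each, sharing the N libraries). Without the libraries above 33% that of H was 1.71, with an adjusted p of 0.156. Suox, the mitochondrial sulfite oxidase, rose in HK against HC (90.0 ± 11.2 TPM in HK and 60.5 ± 10.7 in HC, 0.58, adjusted p = 0.0439), and Ethe1, a mitochondrial persulfide dioxygenase, fell in HK against N (49.9 ± 10.7 TPM in HK and 89.7 ± 11.9 in N, -0.84, adjusted p = 0.0149, limma). Ethe1 differed from N by -0.66 in H and -0.56 in HC, and passed in neither. The list's median log2 difference was 0.03 in HK against HC, beside 0.19 over all genes tested. Against N it was 0.105 in HK, 0.08 in HC and -0.2 in H, beside 0.15, -0.04 and -0.05.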

How the data were processed

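The series holds 16 liver RNA libraries. Values in the deposited tables were taken as TPM, since every column sums to the same total, although the design text names FPKM; per the submitters' processing notes and design text, the authors used HISAT2, RSEM 1.1.17 and edgeR 3.14.0 on mm10. TPM keeps no depth. From the deposited TPM, log2(TPM + 1) was fitted with limma 3.58.1 (R 4.3.3, with a trend on intensity), separately for the 8 libraries of each comparison; genes below 1 TPM in more than 4 of them were left out. P-values were adjusted by Benjamini-Hochberg over all genes tested, and a gene passed at 0.05 with no fold limit. P-values of the 9 genes are printed where the unadjusted p was below 0.05, except for Selenbp2 against N, which has none; other differences have 95% intervals. The genes, lists and tests were chosen with earlier results of these data known. From each list, up to 4 passing genes per comparison with the smallest adjusted p are named, or the 2 most abundant where none passed. The fit was tested on simulated data. Sequences were read and aligned with Biopython 1.88. Same-numbered replicates did not deviate together (r from -0.596 to 0.404 over 24 pairs).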

Additional observations from a re-analysis of the deposited data

Results flagged for a closer look

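Of 36 groups of 4 libraries, 2 held a value far from the other 3 by Dixon's test at the 95% level, where chance gives about 1 in 20. Selenbp2 was highest of its group in N replicate 1, at 65.79 TPM against 13.1 to 19.2 TPM in the other N libraries. Without that library the log2 difference of Selenbp2 from N was 3.25 in HK, 3.37 in HC and 3.88 in H. Selenbp1 was highest of its group in N replicate 2, at 413.2 TPM against 278 to 295 TPM in the other N libraries.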

How the results depend on the processing

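The count of the 9 genes that passed was 0 in HK against H and HC against H under every alternative run. In HK against HC, leaving out 1 library gave 0 to 1 (Txnrd2 without HK replicate 4). In that run 2513 of 10917 genes tested passed, beside 554 of 11002 in the main fit. In H against N the count of the 9 genes was 0 without the filter on low values and 2 with all 16 libraries in one fit. It was 0 without the libraries above 33%, where 2 libraries faced 2. Over all genes, 60 of 16756, 399 of 10960 and 19 of 10377 passed in these runs, and 116 of 10960 in the main fit. In HC against N the count of the 9 genes was 0 without the filter, where 3 of 16764 genes passed, beside 126 of 10862 in the main fit. In HK against N the count of the 9 genes was 2 with median-of-ratios scaling, 2 with quantile normalization and 0 without the libraries above 33%. Over all genes, 742 of 11030 passed with that scaling, 862 of 11091 with that normalization and 189 of 10931 without those libraries. The main fit passed 555 of 11091. When 1 library was left out the count of the 9 genes was 1 to 2. It was 2 without N replicate 1, where 1620 of 10943 genes passed. Of 54 differences, 24 changed sign under some alternative, none of them among the 11 with an unadjusted p below 0.05, and none larger than 0.29. The cause was not tested. The numbers of the replicates did not pair the samples; with the replicate block, the count was 0 in HK against H, HC against H and HK against HC and 1 in each comparison with N. Of 22 list calls, 8 were lost without the libraries above 33%, 8 with median-of-ratios scaling, 9 with quantile normalization, 13 without the filter and 11 under the block. Unknown depth limits what can be said of low genes.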
